A study of Rattus norvegicus albus with 6 samples.

Results

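FJ9, a small molecule that blocks the binding of Dishevelled to Frizzled, was compared with its own vehicle in primary rat hepatic stellate cells. The comparison uses 2 of the 6 arrays in the series, 1 for cells given FJ9 and 1 for their vehicle, and takes the log2 difference of FJ9 minus vehicle for each gene. Only probe sets with 1 gene symbol were used, and where a gene had several, the brightest on average was taken. Leaving out the lowest 30% of gene means kept 10025 of 14322 named genes.

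The cells had been grown for 7 days on plastic in medium with 10% serum, which activates them, and FJ9 was then applied at 200 µM for 24 h without serum. The vehicle array of FJ9 holds cells kept for the same 24 h without serum and without the compound. A further array, the vehicle of ICG-001, was handled alike per the labels and serves as another untreated pool. The series also holds ICG-001 (10 µM, 24 h without serum), which keeps β-catenin from its coactivator CBP, and an adenovirus with DKK-1 (Ad.DKK-1) set against a virus with green fluorescent protein (Ad.GFP), both at 200 infectious units per cell. Each array carries RNA pooled from 3 to 4 rats, and the labels do not say whether pools share animals. Pools may thus differ by animals as well as by treatment. Strain, sex, age and the solvent of the vehicles could not be read from the labels. With 1 array a side there is no replicate and no test, and every value below describes these arrays. The arrays measure bulk RNA, in which fewer cells of a type and less RNA per cell cannot be told apart.

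Wnt proteins bind Frizzled receptors and the co-receptors LRP5 and LRP6 at the cell surface, and Dishevelled, recruited to the inner side of Frizzled, stops the destruction complex of Axin, APC and GSK3 from removing β-catenin. Frizzled and Dishevelled also serve branches that do not use β-catenin, among them planar cell polarity, with the co-receptors Ror and Ptk7. Stellate cells store retinoids in the healthy liver, and once activated they become contractile, matrix-producing myofibroblasts.

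The FJ9 array lay at least 1.5-fold above its vehicle for 1160 genes, which is 11.6% of the 10025, and at least 1.5-fold below it for 1484, which is 14.8%. These shares are the background for the counts of gene groups below. Among the genes past 2-fold, 245 were higher and 601 lower. The differences had a standard deviation over genes of 0.63 and a median of 0.01, and ran from -5.04 to 5.15. The vehicle of FJ9 lay past the upper limit from the vehicle of ICG-001 for 2.44% of genes and past the lower limit for 5.2%, with a standard deviation of 0.34. In either direction, 26.4% of genes lay past 1.5-fold with FJ9 against its vehicle and 33% against the vehicle of ICG-001 (15.8% higher, 17.2% lower), and 7.64% between the vehicles. The same share was 25.7% for ICG-001 and 35.2% for Ad.DKK-1, each against its own control. Past 1.5-fold from both vehicle arrays, 947 genes (9.45%) were higher with FJ9 and 1133 (11.3%) lower. At the limits stood Mtfp1, counted at 0.585, and Metap1, not counted at 0.5849, and on the other side Cald1 at -0.5852 and Abcb4 at -0.5848. The array medians were 7.15 for FJ9, 7.15 for its vehicle and 7.28 for the vehicle of ICG-001. A further 356 genes higher and 280 lower fell under the level filter and are not in these counts. A gene kept by its mean can still read under the filter level of 6.39 on single arrays, where the size of a difference is less sure. Examples named below are Ptk7, Lmod1, Fads2, Scd, Mx2, Uba7, Usp18, Sphkap, Pgf and Cmklr1 with FJ9, and Abcb1a, Slc7a3 and Ereg on both vehicles.

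**Figure D1:**
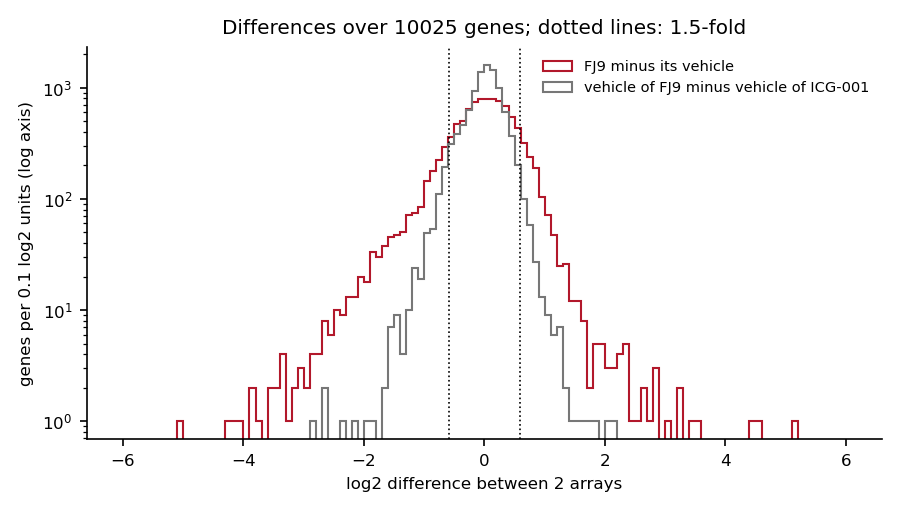
Number of genes (y axis) by log2 difference (x axis) for FJ9 minus its vehicle and for the vehicle of FJ9 minus the vehicle of ICG-001, over 10025 genes, with the 1.5-fold limits as dotted lines. The FJ9 differences spread over a standard deviation of 0.63, and the differences between the vehicle arrays over 0.34.

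The labelled cell type was checked against marker lists. All 11 stellate and myofibroblast markers measured lay above the level filter. Pdgfrb, the PDGF receptor of these cells, read 12.34 with FJ9, 12.42 on its vehicle and 12.46 on the vehicle of ICG-001, and the filament gene Vim read 13.09, 13.05 and 12.76 in the same order. Lrat, which stores retinol as esters, read 7.18 with FJ9, against 10.52 on its vehicle and 11.46 on the other vehicle, 1 of 4 markers in this list that were at least 1.5-fold lower. Acta2 was not analysed here. Of the lists for other cells, 2 of 11 hepatocyte, 4 of 12 Kupffer and macrophage, 3 of 6 endothelial, 3 of 6 cholangiocyte, 3 of 8 lymphocyte and 4 of 4 mesothelial markers lay above the filter. The summed log2 level of the 12 Kupffer and macrophage markers was 76.5 with FJ9, 83.3 on its vehicle and 81.5 on the other vehicle, and that of the 6 endothelial markers 36.5, 40.3 and 39.7. The sum of the 11 stellate markers was lower too, at 119.7, 126.7 and 128.8, as was that of the 4 mesothelial markers, at 30.1, 32.3 and 33.7. The sums on the same arrays were 65.4, 66.1 and 69.8 for hepatocyte, 39.3, 40.0 and 38.8 for cholangiocyte and 52.5, 51.9 and 54.9 for lymphocyte markers. Cd14, a co-receptor for lipopolysaccharide, was lower (-1.47), Csf1r lower (-1.37) and Erg, an endothelial transcription factor, lower (-1.86) with FJ9. None of these markers lay at the floor of the scale on the 3 arrays. Their part in the differences below was not tested.

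Frizzled genes were lower with FJ9 in 6 of the 7 cases measured, all 6 of them past 1.5-fold from both vehicles, with a median of -0.92. Fzd4, which also receives norrin, read 8.28 with FJ9, against 10.10 on its vehicle and 10.55 on the vehicle of ICG-001. The FJ9 value lies below both vehicles, with differences of -1.83 and -2.27. Fzd2 read 8.86 with FJ9, 10.32 on its vehicle and 10.32 on the other vehicle, and Fzd1 read 9.38, 10.77 and 10.74 in the same order. For these genes the vehicle arrays lay within 0.04 of each other, while the difference with FJ9 was -1.46 for Fzd2 and -1.40 for Fzd1. Fzd5 (-0.92), Fzd6 (-0.80) and Fzd8 (-0.72) were the others past the limit. Fzd9 read 8.36 with FJ9, 8.45 on its vehicle and 9.07 on the other vehicle, so it lay close to its own vehicle alone. Fzd3, Fzd7 and Fzd10 were not analysed here. The same list had a median of -0.13 between the vehicle arrays, 0.03 with ICG-001 and -0.23 with Ad.DKK-1, agents given at other doses or in another form. Of its 7 genes, 3 were at least 1.5-fold lower with ICG-001, where 13.1% of all genes were, and 2 with Ad.DKK-1, where 20.8% were. Fzd1 differed by -1.01 with ICG-001 and -0.59 with Ad.DKK-1, Fzd6 by -0.74 and -0.97, and Fzd4 by 0.47 and -0.23.

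Of the co-receptors, 6 of 13 were at least 1.5-fold lower and 1 higher, with a median of -0.49. When both vehicles were required, 5 were lower and 0 higher. With Ad.DKK-1 10 of the 13 were lower, where 20.8% of all genes were, and with ICG-001 3, where 13.1% were. The list medians with these agents were -0.88 and -0.12. Ptk7, a pseudokinase of planar polarity, read 5.48 with FJ9, 6.95 on its vehicle and 7.20 on the other vehicle. Ror1, a receptor for Wnt5a, read 6.90, 8.23 and 7.92 on the same arrays, and its relative Ror2 read 7.14, 6.47 and 6.89. Ror1 was thus lower (-1.33) and Ror2 0.68 higher than their vehicle, and Ror2 was 0.25 above the other vehicle. The canonical co-receptors Lrp5 (-0.73) and Lrp6 (-0.66) were both lower, as was Kremen1 (-0.59), a receptor for DKK proteins. Kremen1 differed by -0.43 from the other vehicle. Lrp5 differed by -0.82 with ICG-001 and -1.35 with Ad.DKK-1, Lrp6 by -0.12 and -0.98, and Ptk7 by -1.51 and -2.73. Musk, a kinase with a Frizzled-like domain, read 7.43 with FJ9, 8.44 on its vehicle and 8.06 on the other vehicle. Ryk (-0.43), Gpc4 (-0.49) and Tspan12 (0.06) stayed within the limits. Prickle1 (-0.99) and Prickle2 (-1.11), intracellular planar polarity proteins, were lower, and Vangl1, a membrane protein of that pathway, read 6.99 with FJ9, 7.00 on its vehicle and 6.99 on the other vehicle. Only 3 of the 7 planar polarity genes measured lay above the level filter. Prickle1 differed by -0.61 with ICG-001 and -0.66 with Ad.DKK-1, Prickle2 by -0.66 and -0.81, and Vangl1 by 0.45 and 0.64.

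The Dishevelled genes themselves were moderately lower. Dvl1 read 7.40 with FJ9, 8.02 on its vehicle and 7.70 on the vehicle of ICG-001. Dvl3 read 8.78, 9.39 and 9.41 in the same order. Dvl1 thus differed by -0.63 from its own vehicle but by -0.30 from the other, and Dvl3 by -0.61 and -0.63. Dvl2 was not analysed here. Among proteins that bind Dishevelled, Cxxc5, an inhibitor that occupies its PDZ domain, read 9.39 with FJ9, 10.38 on its vehicle and 10.17 on the other vehicle. Cxxc5 differed by -1.99 with ICG-001 and -0.38 with Ad.DKK-1. Daam1, a formin that Dishevelled binds, was lower (-0.74), and -0.33 against the other vehicle. Nkd2, a feedback inhibitor, was lower (-0.74), and its relative Nkd1 differed by -0.16. Csnk1e, the casein kinase that phosphorylates Dishevelled, read 10.06 with FJ9, 9.29 on its vehicle and 9.21 on the other vehicle. Klhl12, an adaptor that directs Dishevelled to degradation, read 8.10, 7.36 and 7.29. Both lay above both vehicles, by at least 0.73. In the list as a whole, 2 of 12 were higher and 5 lower, with a median of -0.18, against 3 lower when both vehicles were required.

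**Figure D2:**
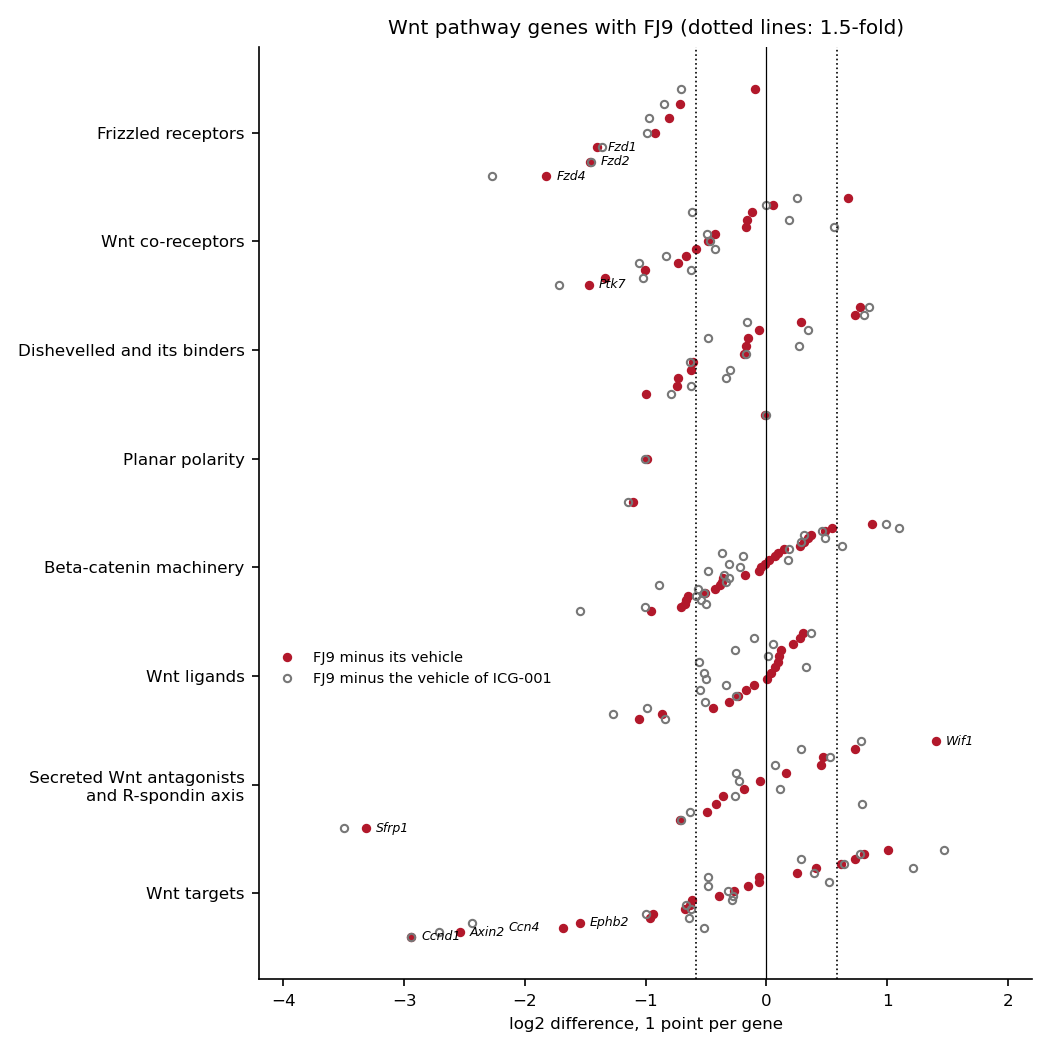
Log2 difference (x axis) of each gene above the level filter in 8 Wnt pathway lists, 1 point per gene, for FJ9 minus its vehicle (filled) and minus the vehicle of ICG-001 (open), with the 1.5-fold limits dotted. The Frizzled points lie between -1.83 and -0.09, while the Wnt ligands straddle 0 against the vehicle of FJ9.

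Downstream of Dishevelled, most of the β-catenin machinery stayed within 1.5-fold: 1 of 25 genes was higher and 5 lower, with a median of -0.05. Axin1, the scaffold of the destruction complex, read 9.20 with FJ9, 8.33 on its vehicle and 8.21 on the other vehicle, a difference of 0.87. Amer1, which anchors APC at the membrane, read 8.86, 9.82 and 10.40, a difference of -0.96. The coactivators Bcl9l (-0.71) and Pygo2 (-0.68), the corepressor Tle5 (-0.67) and the factor Tcf7l1 (-0.65) completed the lower genes, but second probe sets of Pygo2 and of Tcf7l1 each read -0.19. Only 2 of the 5 stayed past the limit from both vehicles, since Pygo2 differed by -0.50, Tle5 by -0.55 and Tcf7l1 by -0.58 from the vehicle of ICG-001. Ctnnb1, which encodes β-catenin, was at -0.51, Apc at -0.18, Gsk3b at -0.02, and the coactivators Crebbp at 0.49 and Ep300 at -0.05.

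Wnt target genes stood on both sides of their vehicle, 9 of 20 lower and 4 higher, with a median of -0.33. Axin2, which Wnt signalling induces as feedback, read 6.23 with FJ9, against 8.77 on its vehicle and 8.94 on the other vehicle. Ccnd1, which encodes cyclin D1, read 9.18 with FJ9, 12.13 on its vehicle and 12.12 on the other vehicle. The vehicle arrays lay close together for both, and the FJ9 value of Ccnd1 stood 7.69-fold below its vehicle. The FJ9 level of Axin2 lies under the level filter, so no fold is given for it. Ephb2, a receptor for ephrin-B, was lower (-1.55) and the membrane protease Mmp14 lower (-0.96). Ccn4 read 7.80 with FJ9, 9.49 on its vehicle and 8.32 on the other vehicle, so its difference was -1.69 against the one and -0.51 against the other. Ccn5 was lower (-0.94). On the higher side stood Fosl1 (1.01), an AP-1 subunit, Myc (0.81) and Notum (0.74), an enzyme that strips the lipid from Wnt proteins. Notum was 0.29 above the other vehicle. Nkd1 (-0.16), Tcf7 (-0.06), Cd44 (0.25) and Jun (-0.27), other members, stayed within the limits. With Ad.DKK-1 9 of the 20 were lower and 3 higher, where 20.8% and 14.5% of all genes were. With ICG-001 2 were lower and 8 higher, where 13.1% and 12.6% were. Axin2 differed by -1.96 with Ad.DKK-1 and -0.13 with ICG-001, and Ccnd1 by -0.98 and -0.18.

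Wnt ligands stayed near their vehicle, with 2 of 16 lower and none higher. Wnt5a, the ligand of the Ror receptors, read 8.68 with FJ9, 9.73 on its vehicle and 9.52 on the other vehicle, and Wnt4 read 9.18, 10.04 and 10.45. Wls, which carries Wnt proteins to the surface, differed by 0.07 and Porcn, which adds their lipid, by 0.30. Of the secreted antagonists and the R-spondin axis, 2 of 12 were higher and 2 lower. Sfrp1, a secreted Frizzled-like decoy, read 6.53 with FJ9, 9.84 on its vehicle and 10.03 on the other vehicle. Dkk3 was lower (-0.72), Wif1, which binds Wnt proteins directly, 1.40 higher and 0.78 above the other vehicle. Sfrp1 was also lower with ICG-001 (-2.40) and with Ad.DKK-1 (-1.81).

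Metallothioneins, small metal-binding proteins, stood among the largest differences with FJ9. Mt1 read 11.81 with FJ9, 7.25 on its vehicle and 6.18 on the vehicle of ICG-001, and Mt2A read 11.50, 7.98 and 6.42 on the same arrays. Both were far above either vehicle, by 23.5-fold and 11.5-fold over their own, although the vehicles themselves differed by 1.08 and 1.56, and the near-identical sequences of the genes may let probes read both. Mt3, another form, differed by -0.29. Of the zinc carriers, the importer Slc39a8 was 1.06 higher and the importer Slc39a10 lower (-0.71). Slc30a1, the zinc exporter that the metal-sensing factor Mtf1 drives, read 8.51 with FJ9, 8.46 on its vehicle and 8.05 on the other vehicle, and Mtf1 differed by 0.30. Of 13 genes in the list, 3 were higher and 1 lower.

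Genes of the NRF2-type response to oxidants and electrophiles were higher in 17 of 36 cases and lower in 2, with a median of 0.48, against 0.01 between the vehicle arrays. Hmox1, which degrades haem, read 11.74 with FJ9, 8.73 on its vehicle and 8.46 on the other vehicle. Slc7a11, the cystine importer, read 11.31, 8.11 and 8.68, and Nqo1, a quinone reductase, read 10.88, 8.38 and 8.90. In each the FJ9 value stood clear of both vehicles. The thiol enzymes Srxn1 (2.33), Txnrd1 (1.58) and Gsr (0.92) and the glutathione synthesis subunit Gclc (1.55) were higher. The partner subunit Gclm was 0.52 higher and the second enzyme of that pathway, Gss, lower (-0.61). Gss differed by -0.28 from the other vehicle. The ferritin genes Fth1 (0.83) and Ftl1 (0.74), the exporter Abcc4 (2.04), and the pentose phosphate enzymes Tkt (0.88) and Taldo1 (0.91) were higher too. Nfe2l2, the gene of NRF2, was 0.72 higher, and Bach1, which represses the same elements, 1.16 higher. Keap1 (0.19), Txn1 (-0.23), Prdx1 (-0.27), Cat (0.44) and Gpx1 (0.02) stayed within the limits. The same 36 genes had a median of -0.15 with ICG-001 and -0.05 with Ad.DKK-1, with 4 and 8 of them at least 1.5-fold higher, against 12.6% and 14.5% of all genes. Slc7a11 was among them in both, at 1.25 with ICG-001 and 2.41 with Ad.DKK-1. With Ad.DKK-1, Nqo1 at 1.12, Srxn1 at 1.06 and Gclc at 0.90 were higher too.

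Among heat shock genes and chaperones, 4 of 18 were higher and none lower. Hspa4l (1.52), an HSP110 relative, led them, while the stress-inducible chaperone genes Dnajb1 (0.13), Hspb1 (-0.16) and Bag3 (-0.04) stayed near their vehicle. The mitochondrial chaperonins Hspe1 (0.69) and Hspd1 (0.66) were higher. The mitochondrial chaperone and protease genes, gathered after the values were seen, were at least 1.5-fold higher in 5 of 9 cases, including the protease Lonp1 at 1.82.

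**Figure D3:**
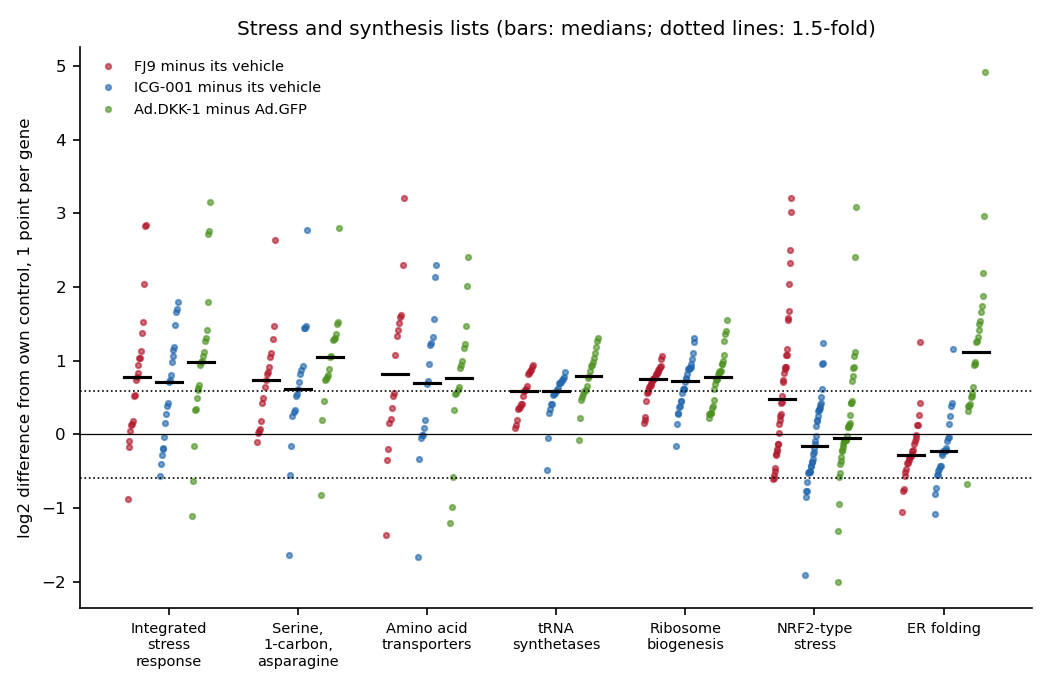
Log2 difference from the own control (y axis) of each gene above the level filter in 7 stress and synthesis lists, 1 point per gene, for FJ9 (200 µM), ICG-001 (10 µM) and Ad.DKK-1, with bars at the medians and the 1.5-fold limits dotted. The endoplasmic reticulum (ER) folding genes have a median of -0.27 with FJ9 and 1.12 with Ad.DKK-1, and the NRF2-type genes one of 0.48 with FJ9 and -0.15 with ICG-001.

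Genes of the integrated stress response, in which phosphorylated eIF2α raises the translation of ATF4, were higher in 12 of 21 cases and lower in 1, with a median of 0.79. Trib3, a stress pseudokinase, read 10.60 with FJ9, 7.76 on its vehicle and 8.37 on the other vehicle. Gdf15, a circulating stress cytokine, read 10.56, 7.74 and 7.91. Both lay above both vehicles by more than 2-fold. Ppp1r15a, which returns eIF2α to its unphosphorylated state, was 2.04 higher, Ddit3, which encodes CHOP, 1.38 higher, Atf3 1.03 higher and Atf4 itself 0.74 higher. The exception was Eif2ak4, the amino acid-sensing kinase GCN2, at -0.88. Other members, Ddit4 (0.04), Fgf21 (0.14) and Atf5 (0.13), stayed near the vehicle.

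The same direction held for genes that supply amino acids and charge tRNAs. Of the serine, one-carbon and asparagine synthesis genes 10 of 17 were higher and none lower, with Cth, which makes cysteine, at 9.29 with FJ9, 6.66 on its vehicle and 6.33 on the other vehicle. Phgdh, the first enzyme of serine synthesis, was 1.48 higher, Mthfd1l 1.30, Shmt2 1.05 and Asns, which makes asparagine, 0.91. Of the amino acid transporters 8 of 16 were higher and 1 lower. Slc7a3, an importer of arginine and lysine, read 8.27 with FJ9, 5.97 on its vehicle and 6.25 on the other vehicle, and Slc3a2, the heavy chain shared by several transporters, read 13.37, 11.74 and 11.89. The glutamate transporter Slc1a3 went the other way, at 7.08, 8.44 and 8.08. Among cytosolic tRNA synthetases 9 of 19 were higher and none lower, led by Sars1 (0.95), Vars1 (0.91) and Mars1 (0.88), and the remaining 10 differed by 0.09 to 0.58. The other agents shared this direction. Higher with Ad.DKK-1 were 14 of the 17 synthesis genes (1 lower), 10 of the 16 transporters (2 lower) and 14 of the 19 synthetases. With ICG-001 9 of each list were higher, with 1 lower among the synthesis genes and 1 among the transporters. Over all genes, 14.5% were higher with Ad.DKK-1 and 12.6% with ICG-001. Cth differed by 2.81 with Ad.DKK-1 and 2.77 with ICG-001.

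Endoplasmic reticulum folding genes did not share this direction with FJ9, where 1 of 24 was higher and 3 lower, with a median of -0.27. Hspa5, the chaperone BiP, read 12.76 with FJ9, 12.63 on its vehicle and 12.60 on the other vehicle. Calr (-0.77), Pdia6 (-0.74) and Creld2 (-1.05) were lower, Xbp1 differed by -0.22, and Atf6, a sensor of misfolded proteins, was 1.25 higher. With Ad.DKK-1 the median of these 24 genes was 1.12 and with ICG-001 -0.22, while the integrated stress response list had medians of 0.99 and 0.71. Genes of ribosome biogenesis were higher in 20 of 26 cases, none lower, and all 20 were past the limit from both vehicles. Polr1b, a subunit of RNA polymerase I, read 8.87 with FJ9, 7.80 on its vehicle and 7.61 on the other vehicle, and Nop56, of the nucleolar complex that methylates ribosomal RNA, read 11.63, 10.74 and 10.68. The median was 0.75 with FJ9, 0.73 with ICG-001 and 0.78 with Ad.DKK-1, agents that differ in dose and form, against 0.15 between the vehicle arrays.

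Genes of cholesterol synthesis were lower at most of the steps measured. All 10 sterol enzymes and 4 of 6 mevalonate pathway genes were at least 1.5-fold lower, with medians of -1.90 and -1.82. The other agents shared this, with 9 of the 10 sterol enzymes lower with ICG-001 (median -1.32) and 9 with Ad.DKK-1 (-1.08). Over all genes, 13.1% and 20.8% were lower with these agents. Of the mevalonate genes 4 of 6 were lower with each, with medians of -1.09 and -0.87, and 1 was higher with Ad.DKK-1. Idi1, which isomerises the isoprenoid unit, read 8.02 with FJ9, 11.57 on its vehicle and 11.87 on the other vehicle. Sqle, the epoxidase of squalene, read 8.97, 11.03 and 11.57, and Dhcr7, the last reductase, read 7.42, 9.92 and 10.72. The FJ9 array was lowest for all 3, and the vehicle of FJ9 lay below the vehicle of ICG-001. The sterol enzymes as a list had a median of -0.60 between the vehicles, so against the vehicle of ICG-001 the FJ9 median was -2.52. Ggps1, which makes the prenyl donor geranylgeranyl diphosphate, stood apart at 0.46.

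Among genes of sterol sensing, Srebf2, the master factor of the pathway, was lower (-1.44) and Insig1, which retains it in the endoplasmic reticulum, lower (-1.21). Stard4, a carrier of cholesterol between membranes, was lower (-2.03). The LXR target genes split, since Abcg1 (-1.14) and Mylip (-1.22) were lower and Abca1 (0.55) was not, while Nr1h3, the gene of LXRα, was 1.01 higher and the lysosomal exporter Npc1 0.74 higher. Fatty acid synthesis and desaturation had 7 of 18 genes lower and none higher. With ICG-001 10 of the 18 were lower and 2 higher, and the counts with Ad.DKK-1 were the same. Scd2, a desaturase, read 7.44 with FJ9, 11.71 on its vehicle and 12.57 on the other vehicle, and Fads2 read 5.72, 9.59 and 11.02. Scd read 5.77, 8.26 and 11.09, so the vehicles themselves differed by -2.83 for this gene, which shares sequence with Scd2. Acaca (-0.02) and Acsl1 (0.06) stayed at their vehicle.

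Star, which carries cholesterol into mitochondria for steroid synthesis, showed the largest increase of all 10025 genes. It read 11.75 with FJ9, 6.60 on its vehicle and 7.32 on the vehicle of ICG-001, 35.5-fold above its own vehicle. The next enzyme, Cyp11a1, lay under the level filter and differed by 0.21. The nuclear receptor genes Nr4a2 (1.40) and Nr4a3 (1.34) were higher and their relative Nr4a1 differed by -0.06, while Hsd11b1, which reactivates glucocorticoids, was lower (-1.08).

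Interferon-stimulated genes were lower in 31 of 38 cases and higher in none, with a median of -1.47. Of the 31, 26 lay past the limit from both vehicles. With Ad.DKK-1 32 of the 38 were lower and 1 higher, with a median of -1.29. With ICG-001 16 were lower and 1 higher, with a median of -0.42. Over all genes, 20.8% and 13.1% were lower with these agents. Mx2, an antiviral GTPase, read 6.30 with FJ9, 10.47 on its vehicle and 8.32 on the vehicle of ICG-001. Isg15, a ubiquitin-like modifier, read 6.52, 9.63 and 8.73, and Irf7, a factor that amplifies the response, read 7.37, 9.57 and 8.70. Among the arrays quoted for these genes, FJ9 was lowest and its own vehicle highest. On the Ad.GFP array Mx2 read 10.99 and Isg15 10.78. Between the vehicles, 17 of the 38 were at least 1.5-fold higher on the vehicle of FJ9, with a median of 0.50, and against the vehicle of ICG-001 the FJ9 median was -1.11. The machinery that attaches and removes Isg15 was lower as well, with the activating enzyme Uba7 (-2.57), the protease Usp18 (-2.62) and the ligase gene Herc6 (-1.21) past the limit. The small membrane proteins Ifitm1 (0.04), Ifitm2 (-0.25) and Ifitm3 (-0.36) stayed within the limits. Herc6 differed by -0.47 from the other vehicle. Of the antigen processing genes 5 of 12 were lower (3 from both vehicles), led by RT1-S3 (-2.00) and the immunoproteasome subunit Psmb9 (-1.49), while B2m differed by -0.05. The sum of the 12 Kupffer and macrophage markers was also lower on the FJ9 array, as given above. It was lower too with ICG-001 (72.8, against 81.5 on its vehicle) and with Ad.DKK-1 (72.1, against 84.0 with Ad.GFP). The 4 markers above the level filter had a median of -0.96 against the vehicle of FJ9 and -0.38 against the vehicle of ICG-001. Between the vehicles their median was 0.52. The part of these markers in the interferon-stimulated genes was not tested.

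Chemokines and NF-kB genes depended on the vehicle. Against its own vehicle 13 of 25 were lower and 2 higher with a median of -0.69, but against the vehicle of ICG-001 the median was -0.014. Ccl2, which attracts monocytes, read 10.39 with FJ9, 11.95 on its vehicle and 10.29 on the other vehicle, so the FJ9 value lay below the one and at the level of the other. Il33, an alarmin, read 6.72, 9.74 and 9.58, and its receptor gene Il1rl1 was among the 50 largest decreases (-2.90). Cxcl12, the ligand of CXCR4, read 9.17, 11.88 and 11.63. For Il33 and Cxcl12 the vehicles lay close together and FJ9 below both. The adhesion gene Vcam1 (-2.18) and Tlr2 (-2.21) were lower, Tlr4 (0.59) and Cxcl1 (0.66) higher, and Nfkbia (0.44) and Icam1 (0.39) within the limits.

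Genes of contraction were lower in 21 of 28 cases and higher in 1, with a median of -0.94, against 0.10 between the vehicles, -0.03 with ICG-001 and -0.10 with Ad.DKK-1. Lmod1, a leiomodin that nucleates actin, read 5.50 with FJ9, 8.83 on its vehicle and 8.69 on the other vehicle. Mylk, the myosin light chain kinase, read 8.84, 11.12 and 11.33, and Vcl, which encodes vinculin of focal adhesions, read 10.42, 12.03 and 11.92. In each the vehicles lay within 0.21 of each other, with FJ9 below both. The smooth muscle myosin Myh11 (-1.71), the calponin Cnn1 (-1.92), the light chain Myl9 (-1.73) and Srf, the factor that drives such genes (-1.07), were lower. Against the other vehicle Cnn1 differed by -0.88. Cnn3, a calponin of non-muscle cells, was 0.81 higher, and Flna (-0.30), Actn1 (-0.35) and Zyx (-0.44) stayed within the limits.

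Genes of caveolae, the flask-shaped pits of the plasma membrane, were lower in 6 of 8 cases. Cavin2, a coat protein, had the most negative difference of the 10025 genes, at 5.10 with FJ9, 10.14 on its vehicle and 10.01 on the other vehicle. The FJ9 level lies under the level filter, where the size of a difference is less sure. Cav1, the main structural protein, read 7.64, 9.83 and 10.16, and Cavin1 read 7.02, 9.26 and 9.36. Ehd2, the ATPase at the caveolar neck, was lower (-1.88), Cav2 lower (-1.46) and Cavin3 lower (-1.20). With FJ9 Cav2 read 5.27, under the level filter as well. All 6 were past the limit from both vehicles, and Pacsin2 (0.33) and Pacsin3 (0.19) were not lower. The list had a median of -1.67 with FJ9, -0.16 between the vehicles, 0.08 with ICG-001 and -0.24 with Ad.DKK-1. Ehd2 was past the lower limit with those agents too, at -0.70 and -0.77, and Cav1 was 1.07 higher with ICG-001.

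**Figure D4:**
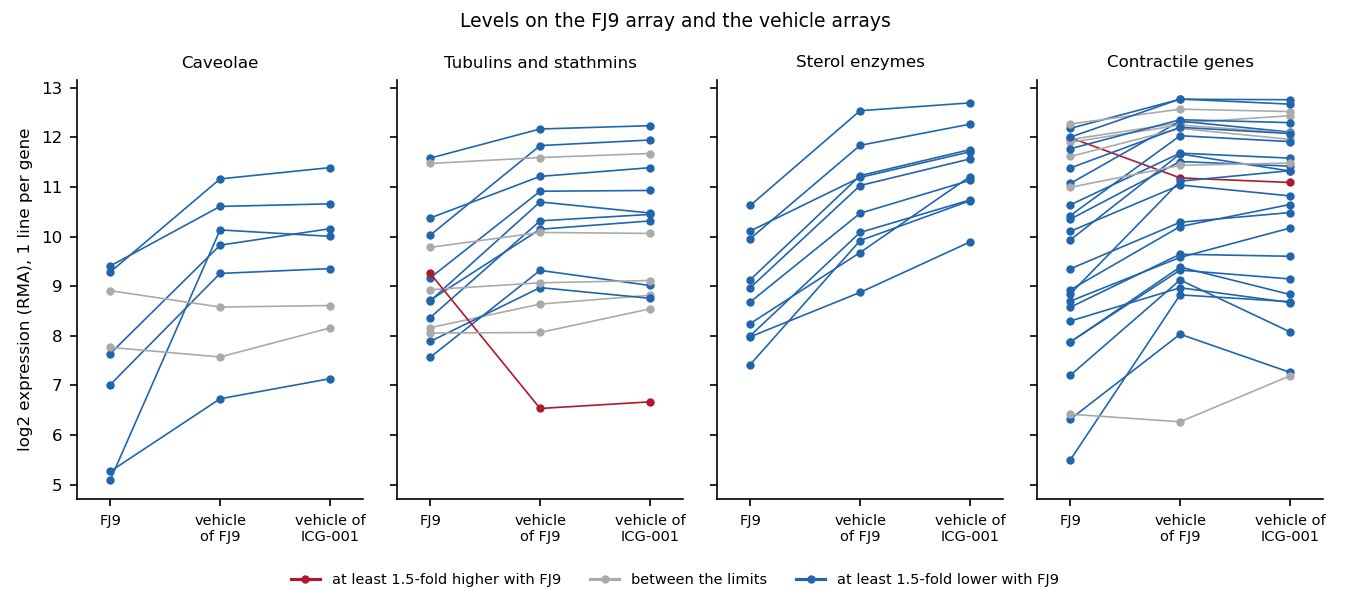
RMA log2 level (y axis) of every gene above the level filter in 4 lists on the FJ9 array, its vehicle and the vehicle of ICG-001, 1 line per gene and 1 array per group, coloured by the 1.5-fold limits against the vehicle of FJ9. The line that falls lowest in the caveolae panel is Cavin2, at 5.10 with FJ9, against 10.14 and 10.01 on the vehicles.

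Tubulin genes were lower together, 9 of the 15 genes of the list, and 1 was higher. Tubb6 read 8.71 with FJ9, 10.70 on its vehicle and 10.48 on the other vehicle, Tubb3 read 8.37, 10.32 and 10.45, and Tuba1a read 10.03, 11.84 and 11.95. These are subunits of microtubules, and close relatives among them may share probe signal. The differences of the 9 ran from -1.99 for Tubb6 to -0.59 for Tubb5. The gene that was higher was Stmn1, whose product binds free tubulin and destabilises microtubules, at 9.26 with FJ9, 6.54 on its vehicle and 6.67 on the other vehicle. The γ-tubulin gene Tubg1 (-0.14) and the microtubule-binding Map4 (-0.12) stayed near their vehicle.

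Matrix genes were lower in a graded way. Among collagens 5 of 14 were lower and none higher, from Col5a1 (-1.30) and Col16a1 (-1.04) to Col14a1 (-0.62), while Col1a1 read 12.57 with FJ9, 12.80 on its vehicle and 12.96 on the other vehicle, and Col3a1 differed by -0.41. In the elastic fibre and crosslinking list 12 of 23 were lower and none higher. Tgm2, a transglutaminase that crosslinks proteins, read 6.51 with FJ9, 10.34 on its vehicle and 10.62 on the other vehicle. Emilin1 (-2.23), Loxl1 (-1.52), Eln (-1.15), Lox (-0.90) and Fbn1 (-0.83), all of elastic fibres or their crosslinking, were lower. The collagen prolyl hydroxylase P4ha1 (0.28) and the chaperone Serpinh1 (-0.28) stayed within the limits. With Ad.DKK-1 6 of the 14 collagens and 13 of the 23 elastic fibre and crosslinking genes were lower, where 20.8% of all genes were. With ICG-001 1 and 7 were lower, where 13.1% were, and 1 collagen was higher.

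Of the proteoglycans and matricellular genes 12 of 23 were lower and none higher, with Lum, which spaces collagen fibrils, at 8.43 with FJ9, 10.90 on its vehicle and 11.54 on the other vehicle. All 4 syndecans, heparan sulphate carriers, were lower, Sdc3 (-1.35), Sdc4 (-1.30), Sdc2 (-1.06) and Sdc1 (-0.59), whereas Sparc (-0.14), Fn1 (0.10), Postn (0.10) and Bgn (-0.01) were not. Among matrix proteases and their inhibitors 11 of 26 were lower, led by Adamts7 (-1.80) and Reck (-1.76), a membrane inhibitor of metalloproteases. The stromelysin Mmp3 was 0.91 higher. Timp3 read 8.64 with FJ9, 9.28 on its vehicle and 8.46 on the other vehicle, so its direction turned with the vehicle. Itgb5 (-1.88) and Itga4 (-1.69) led the integrins and laminins, of which 6 of 13 were lower, and Itgb1 (-0.13) and Itga1 (-0.01) stayed at their vehicle. Of the 23 proteoglycans and matricellular genes 15 were lower with Ad.DKK-1, and 8 lower and 2 higher with ICG-001. Of the 26 proteases and inhibitors 19 were lower and 1 higher with Ad.DKK-1, and 2 lower and 3 higher with ICG-001. Of the 13 integrins and laminins 6 were lower and 1 higher with Ad.DKK-1, and 1 lower and 5 higher with ICG-001. Over all genes, 20.8% were lower and 14.5% higher with Ad.DKK-1, and 13.1% and 12.6% with ICG-001.

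In the TGF-β and BMP list 12 of 30 genes were lower and 3 higher. When both vehicles were required, 9 were lower and 3 higher. The median was -0.55 against the vehicle of FJ9 and -0.27 against the vehicle of ICG-001. Fst, which traps activin, read 7.96 with FJ9, 9.91 on its vehicle and 9.82 on the other vehicle, and Tgfb3 read 11.12, 12.14 and 12.16. Bmp2 was 1.45 higher and Bambi, a decoy receptor, 0.84 higher, while Bmp6 was lower (-1.16) and Tgfb1 lower (-0.63). The receptor-activated factors Smad2 (0.15) and Smad3 (-0.06) and the inhibitor Smad7 (-0.07) did not pass the limit. Pericyte and PDGF genes were lower in 13 of 22 cases and higher in 1, with a median of -1.13. Angpt1, the ligand of Tie2, read 8.85 with FJ9, 10.94 on its vehicle and 10.82 on the other vehicle. Abcc9 (-2.18) and Kcnj8 (-1.59), which together form a potassium channel of pericytes, were both lower. So were the growth factors Pdgfa (-1.25), Pdgfc (-1.15) and Pdgfd (-1.12) and the receptor Pdgfra (-1.29), whereas Pdgfrb differed by -0.08. Cd200, an inhibitory surface protein, read 6.56 with FJ9, 10.64 on its vehicle and 9.40 on the other vehicle.

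YAP targets and the CCN family had 12 of 22 genes lower and 1 higher. Ccn3 read 9.13 with FJ9, 11.48 on its vehicle and 10.86 on the other vehicle, and Edn1, which encodes endothelin, read 8.60, 10.32 and 10.22. The best known targets Ccn2 (0.12), Ankrd1 (-0.48) and Ccn1 (-0.58) were within the limits. Yap1 itself was lower (-0.72), its partner Wwtr1, which encodes TAZ, lower (-0.67), Tead3 lower (-0.99) and Tead2 1.18 higher. In the list of quiescence, retinoid and adipogenic genes 8 of 23 were lower and 2 higher. Beside Lrat, the retinoic acid hydroxylase Cyp26b1 (-2.29) and the reductase Dhrs3 (-1.44) were lower, the stellate cell factors Gata6 (-1.01) and Tcf21 (-0.73) were lower, and Ets2 (2.32) and Cebpa (1.41) higher. Lipid droplet coat Plin2 (-0.02) and Gata4 (0.02) stayed at their vehicle.

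Genes of the cell cycle differed singly. Beside Ccnd1, the kinase Cdk6 (-1.17), the repressor E2f8 (-1.74) and the inhibitors Cdkn2a (-1.65) and Cdkn2b (-0.98) were lower, 5 of 18 G1 genes, and E2f5 (0.87) was higher. Ccnd2 (-0.40), Cdk4 (0.49) and Cdkn1a (-0.23) stayed within the limits. Of the DNA replication genes 4 of 24 were higher and 3 lower. Mcm7, a helicase subunit, read 10.12 with FJ9, 8.48 on its vehicle and 8.22 on the other vehicle, but Mcm2 (0.16) and Mcm6 (0.38) did not follow. Rrm2, which makes deoxynucleotides, was lower (-1.49). Of 27 mitosis genes measured, 15 lay under the level filter, and of the other 12, 2 were higher and 2 lower.

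Immediate early genes stood on both sides of the vehicle. Egr2 (-1.81), Egr1 (-1.34), Zfp36 (-1.37) and Fos (-0.94) were lower, 8 of 23 in the list, while Fosl1, Myc, Ier3 (0.83) and Klf4 (0.60) were higher. Dusp2, a nuclear phosphatase of MAP kinases, read 10.47 with FJ9, 6.00 on its vehicle and 6.17 on the other vehicle, the vehicles both under the level filter. Its relatives Dusp14 (-2.18) and Dusp6 (-0.92; -0.33 against the other vehicle) were lower, Dusp5 was 1.00 higher and Dusp1 differed by -0.02. Among p53 targets and apoptosis genes 3 of 28 were higher and 5 lower, but 1 was lower when both vehicles were required. Gadd45a, a stress sensor, read 11.83 with FJ9, 9.45 on its vehicle and 9.77 on the other vehicle, whereas Cdkn1a (-0.23), Mdm2 (0.25) and Bax (0.25) stayed within the limits.

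In the IGF axis 3 of 12 genes were higher and 3 lower. Pappa, a protease that frees IGF from its binding proteins, read 9.66 with FJ9, 6.77 on its vehicle and 6.86 on the other vehicle. Igfbp3 (-1.89) and Igfbp5 (-2.09), such binding proteins, were lower, as was Igf1 (-0.82), and Igfbp5 also differed by -1.62 between the vehicles. Stc2, an inhibitor of Pappa, was 1.53 higher. Efflux and xenobiotic genes had 5 of 13 higher and 1 lower, with Abcb1a, a drug efflux pump, at 9.37 with FJ9, 5.95 on its vehicle and 6.03 on the other vehicle, while its close relative Abcb1b read 10.13, 10.87 and 10.03. The aryl hydrocarbon receptor target Cyp1b1 differed by -0.04.

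Glycolysis and hypoxia genes were mixed, with 5 of 31 higher and 8 lower. The lactate carriers went opposite ways, since Slc16a1 read 11.20 with FJ9, 9.31 on its vehicle and 9.31 on the other vehicle, and Slc16a3 read 9.11, 11.22 and 11.55. Aldoc (-1.43), Pfkm (-1.16), Tpi1 (-0.87) and Ldha (-0.82), enzymes of glycolysis, were lower, and Hif1a was 0.79 higher. Autophagy and lysosome genes stayed mostly within the limits, with 3 of 28 higher, led by the lysosomal channel Mcoln1 (1.15), and 1 lower. Among guidance and cell contact genes 15 of 32 were lower and 1 higher. Sema7a read 6.49 with FJ9, 9.87 on its vehicle and 9.16 on the other vehicle, Ntn1, a netrin, read 8.17, 10.28 and 10.16, and the netrin receptor Unc5c was 1.09 higher. Set side by side in the plot of list medians, the lists with the lowest medians were the sterol enzymes, the mevalonate pathway and caveolae. Complement genes had 1 of 9 higher, the surface inhibitor Cd55 (0.73), and 2 lower.

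**Figure D5:**
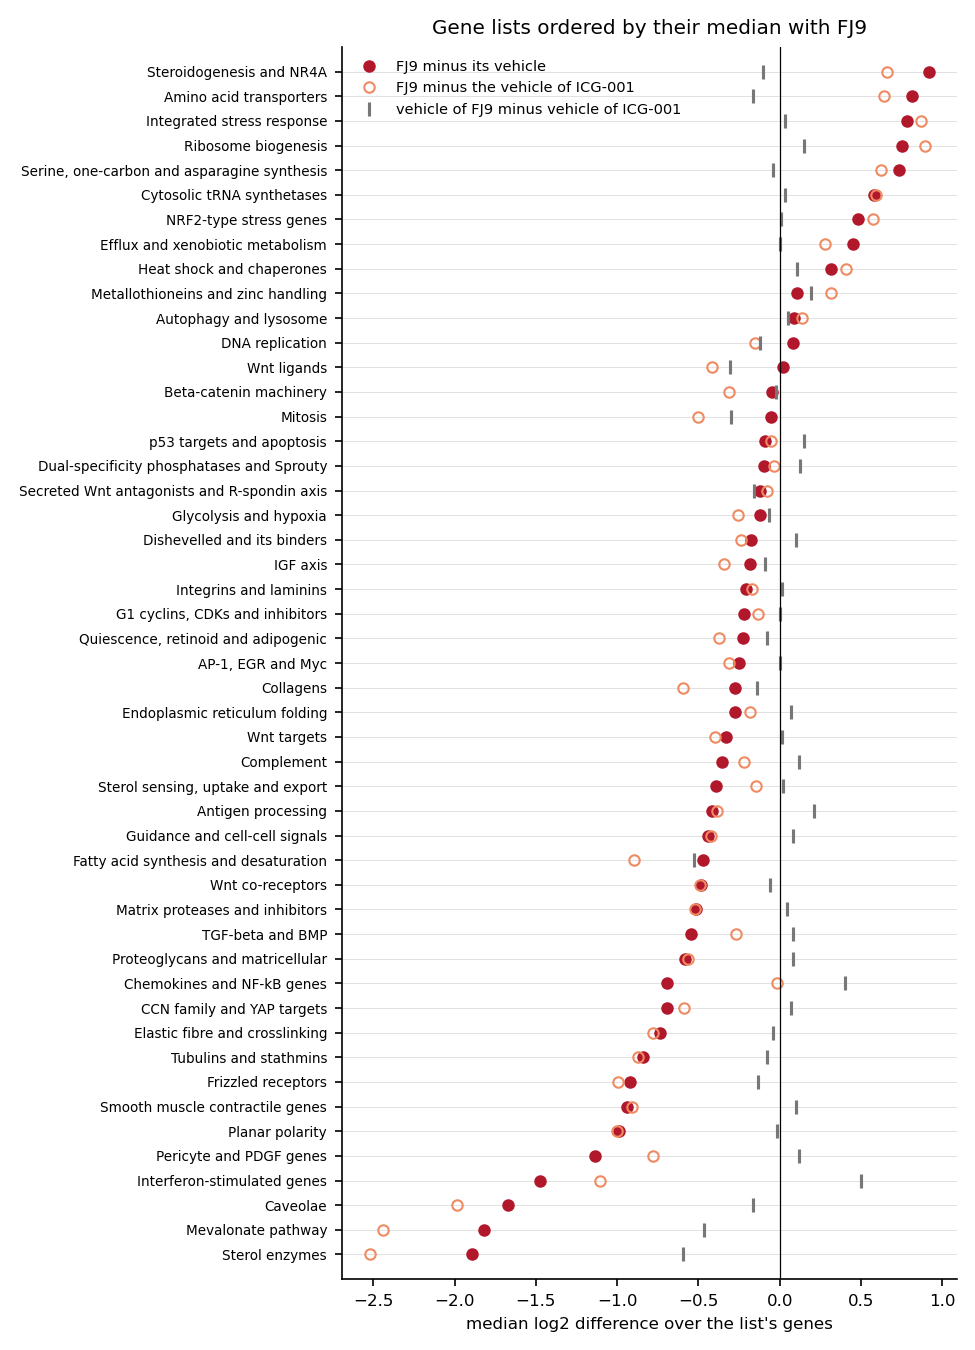
Median log2 difference (x axis) of the genes above the level filter in each of 49 pathway lists, for FJ9 minus its vehicle (filled), FJ9 minus the vehicle of ICG-001 (open) and the vehicle of FJ9 minus the vehicle of ICG-001 (ticks). The filled points run from -1.90 for the sterol enzymes to 0.92 for the steroidogenesis and NR4A list.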

How the data were processed

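The 6 arrays, 1 per group, each carry RNA pooled from 3 to 4 rats. Each deposited value is the log2 expression of a probe set on an array. Per the submitters' processing notes, the authors used RMA and Affymetrix Expression Console, with versions not given in the sources used here. A floor stands at 4, and differences of genes near it may be understated. The number of arrays limits the precision. Of 26988 probe sets, 15092 carry 1 gene symbol in the platform annotation, 323 carry several and are not named, and 11573 are unnamed here. Entrez identifiers of 15062 matched the RefSeq gene table of GRCr8, used for names alone.

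Each of 14322 genes was represented by its probe set of highest average level, and genes with a mean up to 6.39 (the lowest 30%) were left out. Log2 differences were taken as FJ9 minus its vehicle, and genes at least 1.5-fold apart (0.585 on the log2 scale) were counted with Python 3.11.15, pandas 2.3.3 and numpy 2.4.6. The counting code was run on simulated data with planted changes and less noise than lies between the vehicle arrays. That run checks the code alone and gives no rate of wrong calls for these arrays. Figures were drawn with matplotlib 3.10.9.

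The members and the 49 pathway and 7 marker lists were chosen with earlier results of these data known. Members of the lists and the 50 largest differences each way may be named. Alternatives were the other vehicle, the mean of both, median centring, repeated quantile normalization, loess of the difference (statsmodels 0.14.6, span 0.3), other level filters, the mean of all probe sets and a 2-fold limit. Counts over all genes past 1.5-fold from both vehicles were also planned, and those of list members were added after seeing the data. A median or single gene was taken as unmoved where it shifted by less than 0.34, the standard deviation over genes between the vehicle arrays.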

Additional observations from a re-analysis of the deposited data

How the results depend on the processing

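With 1 array a side no replicate could be left out. No paired analysis was possible because each group holds 1 array and the comparison comes from no test. A 2-fold limit left 245 genes higher and 601 lower. Under the other settings, the count from both vehicles included, between 870 and 1588 genes were higher and between 1133 and 1764 lower, all within 1.5 times the counts reported. The totals differ with the level filter. The 870 are of 7161 genes with the lowest 50% left out, and the 1764 of 14322 without a filter, against 10025 otherwise. Between the vehicle arrays, median centring turned 245 higher and 521 lower genes to 575 and 265, and repeated quantile normalization gave 457 higher. Of 49 list medians, median centring, loess, repeated quantile normalization and the mean of all probe sets moved 0. Against the vehicle of ICG-001, 8 moved: Wnt ligands to -0.42, mevalonate pathway to -2.44, sterol enzymes to -2.52, fatty acid genes to -0.90, interferon-stimulated genes to -1.11, chemokines to -0.014, pericyte genes to -0.78 and mitosis to -0.50. Against the mean of both vehicles chemokines moved to -0.33. Without the level filter planar polarity moved to -0.014, the steroidogenesis list to 0.21 and caveolae to -1.33, since more low genes enter, and with the lowest 50% left out the steroidogenesis list moved to 1.40 and Dishevelled and its binders to -0.61. Of 970 genes named or listed, 285 moved by at least 0.34 against the vehicle of ICG-001, and 80 against the mean of both vehicles. A further 5 genes past 1.5-fold changed sign against the vehicle of ICG-001: Abcb1b (0.10, against -0.74), Ccl2 (0.10, against -1.56), Cyp2s1 (-0.73, against 0.80), Lbp (1.14, against -0.69) and Timp3 (0.18, against -0.63). Lbp was also 0.22 against the mean of both vehicles. These changes follow from the differences between the vehicle arrays, whose cause was not tested.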

Other observations

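Several families came to notice among the largest differences and were looked up whole after their values were seen, so their counts describe these arrays alone. A-kinase anchoring proteins, scaffolds that hold protein kinase A at defined sites, had 6 of 12 genes at least 1.5-fold lower and 1 higher. Akap5, which anchors the kinase at the plasma membrane, was lower (-3.48) with FJ9 than on its vehicle, Akap12, a scaffold of the cell cortex, lower (-3.05), and Sphkap lower (-2.97). The mitochondrial anchor Akap1 stood apart at 0.89. The immunity-related GTPases and guanylate-binding proteins, which interferon-γ induces, were lower in 5 of 5 cases, with Ifi47 at -2.69, Igtp at -2.16 and Gbp5 at -1.71. The median of this family between the vehicle arrays was 0.52. Ifi47, Igtp and Gbp5 differed by -1.95, -1.53 and -1.80 with Ad.DKK-1, and by -2.18, -0.63 and -0.18 with ICG-001.

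Ligands of the BMP and GDF family stood on both sides of the vehicle, with 5 of 12 lower and 3 higher. Gdf2, which encodes BMP9, was lower (-2.84), Gdf6 lower (-2.76) and Bmp10 lower (-1.38), while Gdf15 was 2.82 higher and Bmp2 1.45 higher. Bmp7 was 0.87 above its own vehicle and 0.19 above the vehicle of ICG-001. Of 6 VEGF ligands and receptors, Vegfd (-2.67), the receptor Flt1 (-1.46) and Pgf (-1.25) were lower, and Vegfb (0.74) and Vegfa (0.61) higher. Vegfb was 0.26 above the vehicle of ICG-001. Septin4, a septin found in stellate cells, was lower (-2.71) and the only 1 of 9 septins past the limit.

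Single genes among the 50 largest differences each way lay outside every list. Ereg, a ligand of the EGF receptor, read 8.69 with FJ9, 6.09 on its vehicle and 6.00 on the vehicle of ICG-001. Txnip, an arrestin-like protein that restrains glucose uptake, was lower (-2.68), and Arrdc3, of the same arrestin-like family, 2.28 higher. Gpr39, a zinc-sensing receptor, was lower (-2.47), and Cmklr1, the receptor of chemerin, lower (-2.89).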
